A study of Mus musculus with 2 samples.

Results

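Cells under 2 sample tags of a single cartridge of 4T1 mammary tumour cells were compared, tag 2 against tag 1, in mice that had received no anti-PD-1 antibody. All cells carrying these tags were taken, 2430 of tag 1 and 1515 of tag 2, or 3945 of the 12018 cells of the series. Tumours had been grown from the mouse mammary carcinoma line 4T1, which is syngeneic with BALB/c mice, in a mammary fat pad of female mice of 8 weeks, and had reached about 70 mm3 at 7 days. One arm of this pool received a rat IgG2a isotype control antibody and the other an anti-Siglec-E antibody. Each arm had 6 mice, 2 tumours per arm were dissociated, and the labels do not tell the tumours of an arm apart. They also do not say which tag carried which arm, and each value is therefore listed under its tag. Red cells were lysed, dead cells removed, and EPCAM-positive and EPCAM-negative fractions recombined 1 to 4, so the experimenters' mixing bears on the share of epithelial cells. The other pool of the series, which had anti-PD-1 with or without anti-Siglec-E, is cited only as tags 3 and 4 beside a result.

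Siglec-E is a receptor of mouse neutrophils, monocytes and macrophages that binds sialic acids on other cells and passes an inhibitory signal through its cytoplasmic tail. Many tumours, 4T1 among them, cover their surface with sialylated glycans, and 4T1 tumours are also known for drawing large numbers of neutrophils. Neutrophils in tumours can secrete chemokines and can restrain or help T cells.

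The measurement was a targeted one: the BD Rhapsody mouse immune response panel counts messenger RNA molecules of a fixed gene set in each cell. The 396 genes present in both tables held 5318288 molecules in tag 1 and 2993684 in tag 2, with medians of 1463 and 1325 molecules and 83 and 84 genes per cell. No cell number occurred in both tags. With 1 tag per arm there is no replicate and no test; intervals are 95% and cover counting error only. Per the file headers, tag 1 was counted in another run of the pipeline and against another gene reference than tag 2, so arm, tumours and table cannot be told apart. Of 210 genes measured in neutrophils, Lgals1-high cells and macrophages alike, 3 differed at least 1.5-fold in the same direction in all of them: H2-DMb2, lower in tag 2, and Trbc1 and Xcl1, higher. H2-DMb2 and Trbc1 each have a near-identical copy in the genome (H2-DMb1 and Trbc2), so reads could be split between copies and their values are uncertain.

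Classes were set by marker gates. A cell was called a neutrophil when S100a8 and S100a9, which encode the calprotectin subunits stored in neutrophil cytosol, made up at least 2% of its molecules. S100a8 lies at chr3:90668978-90670035 (GRCm38, plus strand). The limit stood in a dip between the low and high parts of the distribution on a log scale. There 165 cells lay between 1.585 and 2.512%, and 541 cells (337 of tag 1 and 204 of tag 2) lay between 1 and 4%. Lgals1-high cells had at least 2% of their molecules from Lgals1, which encodes galectin-1 and lies at chr15:78926725-78930465. T cells (Cd3e and Cd3g), macrophages (C1qa, C1qb and Trem2), NK cells (Klra7 and Eomes), B cells, dendritic cells, mast cells or basophils and stromal cells needed 3 molecules of their markers. Cells meeting gates of different types were set apart as mixed, and cells meeting none as ungated. The exception was Lgals1: a cell of a single marker gate that also passed the Lgals1 limit stayed in its marker class. Genes used in any gate were left out of the comparisons of single genes and gene lists. The summed cell type markers given below kept them.

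Lgals1-high cells carried the genes of an epithelial tumour cell where these could be read. In the tag 2 table, which counts Epcam, Cdh1 and Msln, at least 3 molecules of Epcam were found in 74 of its 94 Lgals1-high cells (78.7%), of Cdh1 in 64 and of Msln, which encodes mesothelin, in 59. As many Epcam molecules were found in 7 of its 1098 neutrophils, 2 of 45 T cells and 4 of 94 ungated cells. Shares were larger in macrophages (7 of 51), mixed cells (24 of 98) and dendritic cells (2 of 7). Depth differed as well, with a median of 1203.5 molecules per neutrophil and 3485.5 per Lgals1-high cell of tag 2. The tag 1 table does not count these genes, and no value here checks the epithelial identity of its Lgals1-high cells in the same way.

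Tag 2 held a larger share of T cells and a smaller share of Lgals1-high cells than tag 1, while the difference in neutrophils lay within counting error. Neutrophils were the bulk of both populations, with 71.1% of all cells in tag 1 (69.2 to 72.9) and 72.5% in tag 2 (70.2 to 74.7), a difference of 1.41 points (-1.50 to 4.26). T cells made up 1.605% of tag 1 (1.14 to 2.19; 39 cells) and 2.97% of tag 2 (2.17 to 3.95; 45 cells), a ratio of 1.85 and a difference of 1.36 points (0.422 to 2.44). The direction of that difference held under every other gate, cluster or denominator tried. Lgals1-high cells made up 10.3% of tag 1 (9.11 to 11.6; 250 cells) and 6.20% of tag 2 (5.04 to 7.54; 94 cells), which is 4.08 points lower (interval of the difference -5.77 to -2.33). In tags 3 and 4 the Lgals1-high share was 4.08 and 11.6%, a wider spread than between tags 1 and 2. The part played by the recombined fractions in these shares was not tested; among gated leukocytes alone, which leaves the Lgals1-high cells out, T cells were 2.06% of tag 1 and 3.69% of tag 2.

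**Figure D1:**
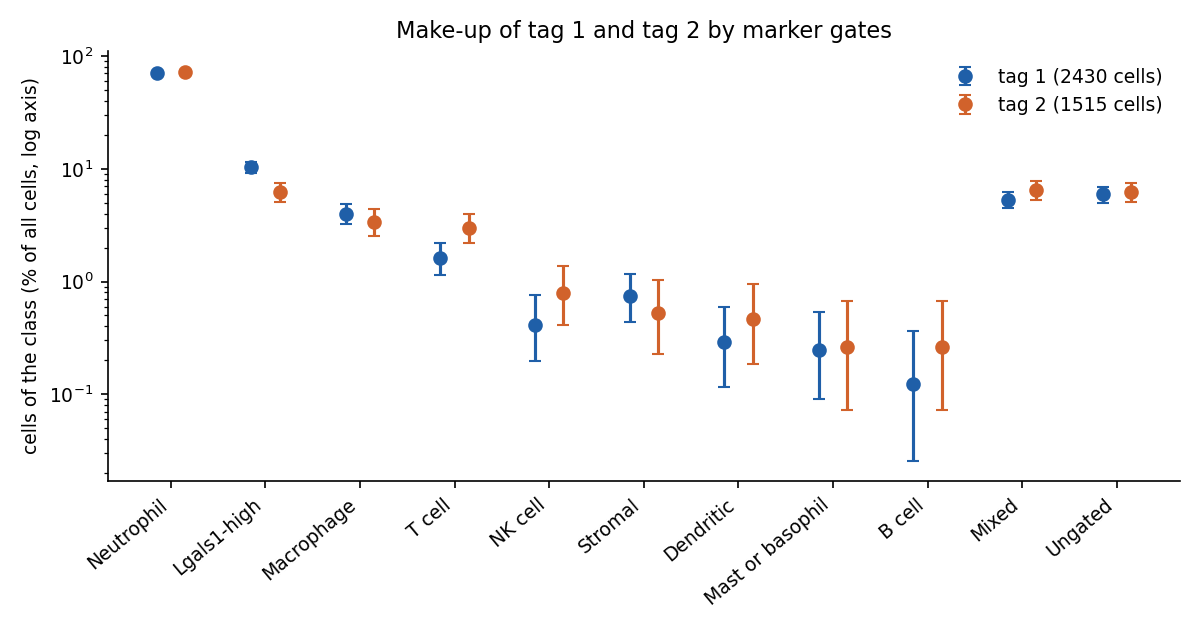
Share of all cells in each gated class (vertical log axis, percent) for tag 1 (blue, 2430 cells) and tag 2 (orange, 1515 cells); points are shares and bars exact 95% intervals that cover counting error only. Neutrophils sit at 71.1 and 72.5%, T cells at 1.605 and 2.97%, and Lgals1-high cells at 10.3 and 6.20%.

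The smaller classes were too thinly filled for their shares to be told apart. Macrophages made up 3.99% of tag 1 (97 cells) and 3.37% of tag 2 (51 cells), with a difference between -1.79 and 0.627 points. NK cells made up 0.412% (10 cells) and 0.792% (12 cells), with a difference between -0.102 and 0.997 points. Stromal cells numbered 18 and 8, dendritic cells 7 and 7, mast cells or basophils 6 and 4 and B cells 3 and 4, and for each of these the interval of the difference included 0. Mixed cells were 129 of tag 1 and 98 of tag 2 (5.31 and 6.47%), among them 18 and 15 that passed both the T cell and the neutrophil gate. Ungated cells were 144 and 94; of the 94 in tag 2, 68 (72.3%) had at least 3 molecules of Csf3r, the receptor for the neutrophil growth factor G-CSF, so the neutrophil gate left out some cells with that neutrophil gene.

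Among the T cells, the subset with the clearest difference was CD4 T cells in which no Foxp3 was found. Foxp3 is the master transcription factor of regulatory T cells. Subsets were set by Cd8a with Cd8b1, by Cd4, and by Foxp3, after the values had been seen. CD4 cells without a Foxp3 molecule numbered 8 in tag 1 and 17 in tag 2, or 0.329% (0.142 to 0.648) and 1.122% (0.655 to 1.79) of all cells, a difference of 0.793 points (0.265 to 1.48). CD8 cells numbered 16 and 14 and CD4 cells with Foxp3 11 and 10, or 0.658 and 0.924% and 0.453 and 0.660% of all cells, with intervals of the difference that included 0. As a share of T cells, CD4 cells without Foxp3 were 20.5% in tag 1 and 37.8% in tag 2, and that difference, 17.3 points, had an interval of -2.39 to 34.8. A cell without a Foxp3 molecule may still express it, at a median of 1099 and 1001 molecules per T cell.

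Neutrophils of both tags were nearly the same in the genes they expressed. Levels are given as molecules per 1000000 shared-gene molecules of the class (CPM), and a gene counted as higher or lower at a 2-fold difference with at least 30 molecules over both tags. By this rule 8 genes were higher and 5 lower in tag 2 among 260 measured, 5% of them; 87.7% of the 260 lay within 1.5-fold, and the median log2 ratio was 0.00. Abundant secreted or surface factors, picked after their values were seen, were close between tags, while Il6 and Thbs1, given below, passed 2-fold. Cxcl2, a chemokine that draws further neutrophils, stood at 50468 CPM in tag 1 and 52217 in tag 2, and Ccl3, a chemokine for monocytes and lymphocytes, at 13735 and 13852. Il1rn, which encodes the natural antagonist of the interleukin-1 receptor, stood at 17223 and 17376, and Cd274, which encodes the PD-1 ligand PD-L1, at 5905 and 5701. Each of these 4 genes differed by at most 0.05 on the log2 scale. Il1b stood at 572 and 569 CPM in tags 1 and 2 and at 267 and 278 in tags 3 and 4.

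**Figure D2:**
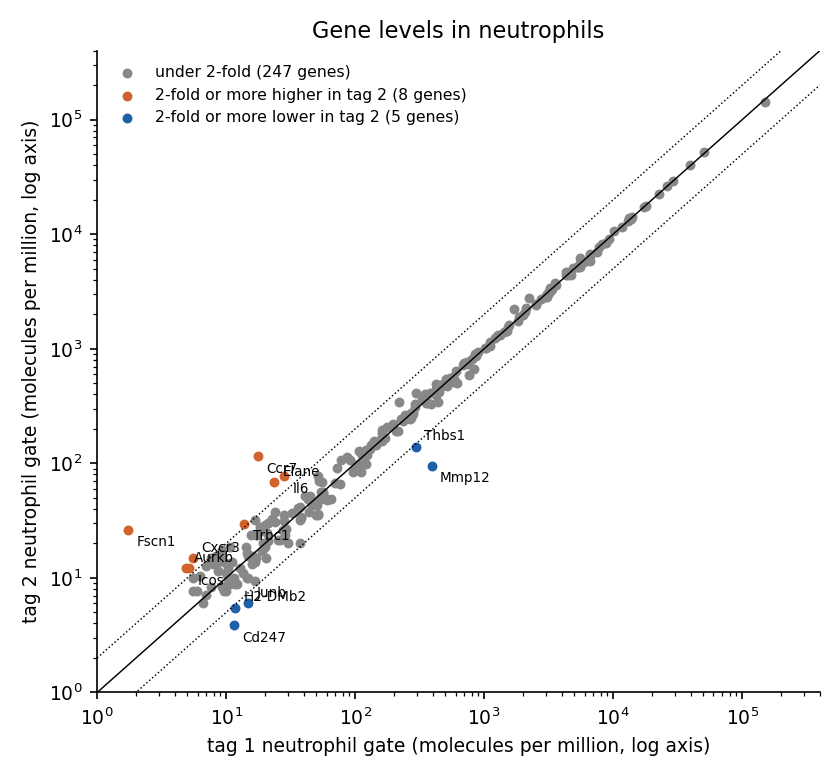
Level of the 260 measured genes in gated neutrophils, tag 1 on the horizontal and tag 2 on the vertical axis (CPM, both log axes); the solid line marks equal levels and the dotted lines a 2-fold difference. The 247 genes in grey lie within 2-fold, and the 13 genes past it, named beside their points, all lie below 1000 CPM.

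The neutrophil lists show the same. Of 15 lists of immune genes, 9 had no member past 2-fold, and medians ran from -0.08 to 0.33 on the log2 scale against 0.00 over all measured genes. No chemokine passed among 13 measured, nor did any interferon-response gene among 7, NF-kappaB gene among 5, class II antigen presentation gene among 5, T cell checkpoint gene among 6, cytotoxic gene among 5, complement or scavenger gene among 2, or suppressive myeloid gene among 9. The antibody targets and partners had 3 measured members, all level: Cd274, Cd33, a sialic acid receptor of the same family as Siglec-E at 1331 and 1327 CPM, and Cd86. Single members were called in 6 lists: Icos among costimulation genes (1 of 8), Il6 among cytokines (1 of 11), Ccr7 and Cxcr3 among chemokine receptors (2 of 9), Elane among granule genes (1 of 8), Aurkb among proliferation genes (1 of 6) and Junb among stress genes (1 of 10). Over all 260 genes measured in neutrophils 5% were called.

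All 8 higher genes fell under 2-fold when the cell richest in that gene was left out. Elane, the neutrophil elastase of immature granules, stood at 23.6 CPM in tag 1 and 68.2 in tag 2, but 1 cell of tag 2 held 99.2% of its 124 molecules, and the log2 ratio went from 1.53 to -5.41 without it. Fscn1 (1.73 and 26.4 CPM) and Ccr7 (17.7 and 115), which mark migrating dendritic cells, had 91.7 and 91.4% of their tag 2 molecules in 1 cell. Il6 (28.1 and 77.5), Cxcr3, Aurkb, Icos and Trbc1 had between 37.0 and 68.2% there. The lower genes were of both kinds. Mmp12, a macrophage elastase at chr9:7344381-7369499, stood at 392 CPM in tag 1 and 95.6 in tag 2, with 79.6% of the tag 1 molecules in 1 cell and a log2 ratio of 0.25 without it. Junb, an immediate early transcription factor gene, stood at 14.9 CPM (43 molecules in 43 cells) and 6.05 (11 molecules in 11 cells), and no cell decided that ratio (log2 -1.30, and -1.27 without the top cell). Junb was also lower over all cells (-1.40) and in Lgals1-high cells (-1.32). Its tag 1 level in neutrophils lay above those of tags 2 to 4, as did that of 92 of the 260 measured genes in all. H2-DMb2 (log2 -1.10) and Cd247, the T cell receptor zeta chain (-1.57), also held without their top cell, at under 12 CPM in both tags. Thbs1, which encodes thrombospondin-1 and lies at chr2:118111876-118127133, stood at 297 and 139.6 CPM, and its log2 ratio of -1.09 was -0.44 without 1 cell that held 36.4% of its tag 1 molecules.

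The share of cells with a molecule, with every cell thinned to 500 molecules, was close between tags for the first 4 genes given here. Thinning left 1614 neutrophils of tag 1 and 1029 of tag 2 and left out 113 and 69 shallower cells. Ccl3 was found in 79.7 and 79.4% of them (a difference between -3.54 and 2.77 points), Tnf in 53.8 and 52.2% and Cd274 in 79.8 and 79.3%. Thbs1 was found in 3.16 and 2.82%, with a difference between -1.63 and 1.07 points. Pcna, a DNA replication gene picked after its value was seen, was found in 21.4 and 26.3%, a difference of 4.96 points (1.64 to 8.34).

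Neutrophils were also split into bands by how much calprotectin they carried. Of gated neutrophils, 23.2% of tag 1 and 22.3% of tag 2 had 2 to 10% of their molecules from S100a8 and S100a9, 40.9 and 41.6% had 10 to 30%, and 35.9 and 36.1% had more. In tags 3 and 4 the top band held 44.1 and 44.9%. Cxcl2 went from 104515 CPM in the lowest band of tag 1 to 24458 in the top band, and from 102826 to 27319 in tag 2. Ccl3 went from 31413 to 4934 and from 32497 to 5336, and Il1rn from 34493 to 7298 and from 36025 to 7807. By construction, the share left for other genes is smaller where that of the S100 genes is larger. Cxcr2, the receptor for Cxcl2, stood at 602 and 1013 in the lowest and top bands of tag 1, and at 812 and 1006 in those of tag 2. Other genes differed between tags within a band. In the lowest band Thbs1 stood at 1304 CPM in tag 1 and 469 in tag 2, Vegfa at 904 and 525 and Arg1 at 872 and 1415. In the middle band Mmp12 stood at 1004 and 51.5. Arg1 went the other way in the top band, at 156 CPM in tag 1 and 89.4 in tag 2. No band value was taken again without its top cell. Over all gated neutrophils, a single cell held most tag 1 molecules of Mmp12 and a large part of those of Thbs1, as given above.

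**Figure D3:**
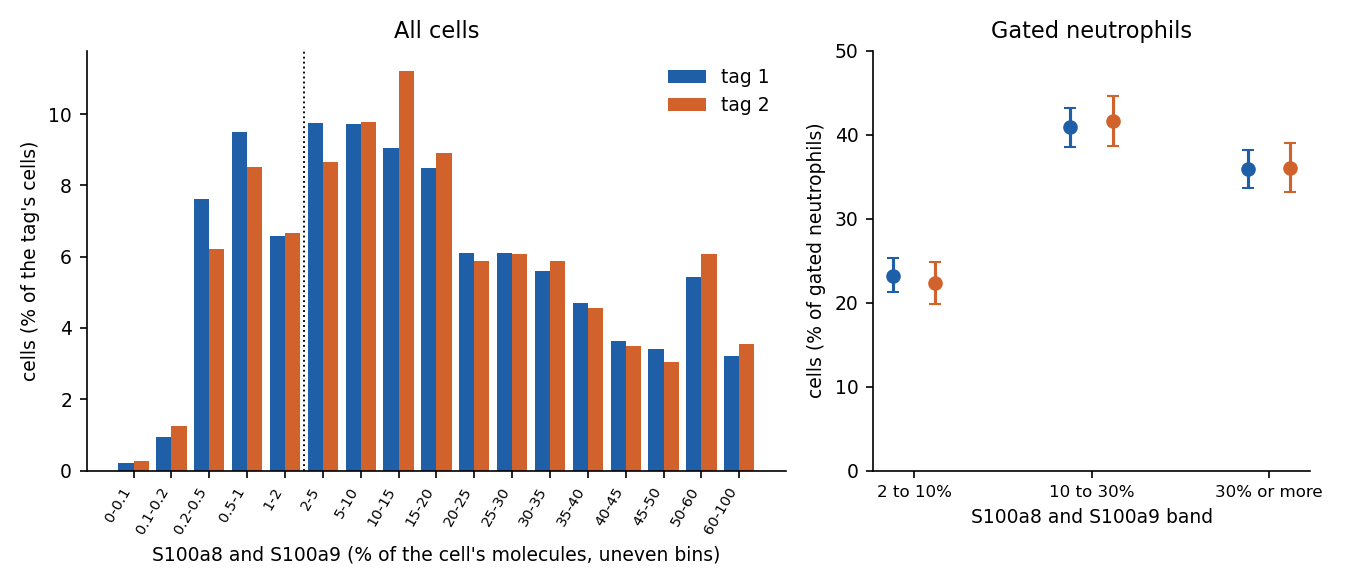
Left, share of all cells (percent of each tag) by the percent of a cell's molecules from S100a8 and S100a9, in uneven bins, with the neutrophil limit of 2% dotted; right, share of gated neutrophils in 3 bands of that percent, with exact 95% intervals. Tag 1 (blue) and tag 2 (orange) follow each other, with 35.9 and 36.1% of neutrophils in the top band.

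Siglece itself, the gene of the antibody's target, was counted in the tag 2 table, and most of its molecules lay in neutrophils. Of 950 molecules, 817 (86.0%) lay in gated neutrophils, at 449 per 1000000 shared-gene molecules (419 to 481). These neutrophils were 72.5% of the cells of tag 2 and held 1819307 of its 2993684 shared-gene molecules. At least 3 molecules were found in 113 of 1098 neutrophils (10.3%), 1 of 51 macrophages and 1 of 94 Lgals1-high cells. Macrophages stood at 55.4 per 1000000 (28.6 to 96.8) on 12 molecules and Lgals1-high cells at 18.3 on 7. Mixed cells stood at 254.5 (202.7 to 315.5) and ungated cells at 227.3 (149.8 to 330.7). Dendritic cells stood at 240 on 3 molecules, with an interval of 49.5 to 701.5 that included the neutrophil level. T cells of tag 2 held 0 of the molecules, which by the exact interval allows up to 60.5 per 1000000. Tag 1 has no value for this gene.

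In Lgals1-high cells 1 class II antigen presentation gene, H2-Eb1, passed 2-fold, and the 4 other measured members of the list lay between 0.64 and 0.89 on the log2 scale. These genes encode the molecules that show peptides to CD4 T cells; epithelial and tumour cells can switch them on under interferon gamma. H2-Aa, at chr17:34282744-34287823, stood at 5575 CPM in tag 1 (5428 to 5725) and 10334 in tag 2 (10015 to 10661), and H2-Eb1, at chr17:34305867-34316674, at 1775 (1692 to 1860) and 3621 (3433 to 3817). H2-DMa, which loads peptides, stood at 808 and 1487 CPM, and Cd74, the chaperone of class II, at 433 and 723. The median log2 ratio of the 5 measured members was 0.88 against -0.07 over the 233 genes measured in these cells. Without the cell richest in the gene, the log2 ratios of H2-Aa and H2-Eb1 were 1.09 in place of 0.89 and 1.31 in place of 1.03. Both rose, so the cell left out was of tag 1. The richest cell of tag 2 was kept, and this does not show whether the higher tag 2 level rested on 1 cell. Cd74 went from 0.74 to 0.04 without its top cell. Cells were also thinned to 500 molecules each, so that deep cells count no more than shallow ones, and then gated again. The ratios were then 0.51 for H2-Aa and 0.57 for H2-Eb1, under 2-fold for both. Gating again can change which cells are in the class, so depth and choice of cells are not told apart there. H2-DMb2, a class II gene outside the list, was lower at -1.86, and at -0.51 without its top cell.

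H2-Aa and H2-Eb1 were also found in a larger share of cells, and the other class II genes were not told apart. For these shares cells were thinned to 500 molecules but left in the class set at their full depth. H2-Aa was found in 88 of 242 Lgals1-high cells of tag 1 (36.4%) and 52 of 92 of tag 2 (56.5%). The difference was 20.2 points (8.22 to 31.4), and at the cells' own depth the shares were 58.8 and 73.4%. H2-Eb1 was found in 20.7 and 41.3% of thinned cells, a difference of 20.6 points (9.63 to 31.9). H2-DMa was found in 23.1 and 32.6%, with a difference between -0.949 and 20.7 points. Cd74 was found in 9.09 and 9.78%, H2-Ab1 in 1.65 and 1.09% and H2-DMb2 in 1.65 and 0%, and the interval of each difference included 0. In neutrophils, with a median of 1249 and 1203.5 molecules per cell against 3551 and 3485.5 in Lgals1-high cells, the thinned shares with H2-Aa were 14.4 and 16.5%, and these serve as the background. Tags 3 and 4 stood higher still, at 79.5 and 86.8% of thinned Lgals1-high cells for H2-Aa. Within tag 2, at least 3 H2-Aa molecules were found in 48 of the 74 Lgals1-high cells with at least 3 Epcam molecules (64.9%, 52.9 to 75.6). They were found in 6 of the 20 with fewer (30%, 11.9 to 54.3). Both limits were counted at the cells' own depth, so a deeper cell passes either more easily. The part of depth in this contrast was not tested. In macrophages, which present antigen in both tags, H2-Aa was level at 32713 and 31742 CPM, as it was in neutrophils at 853 and 861. Summed levels of 11 monocyte and macrophage markers in Lgals1-high cells were 3947 CPM in tag 1 and 3123 in tag 2, and of 7 dendritic cell markers 1193 and 1025. Arg1 (log2 -1.59) is among the 11 and Ccr7 (-2.19) among the 7, and both were called lower. C1qa, C1qb, Trem2 and Flt3, also in these sums, are held low by the gates themselves. The part of other cell types in the class II values was not tested.

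**Figure D4:**
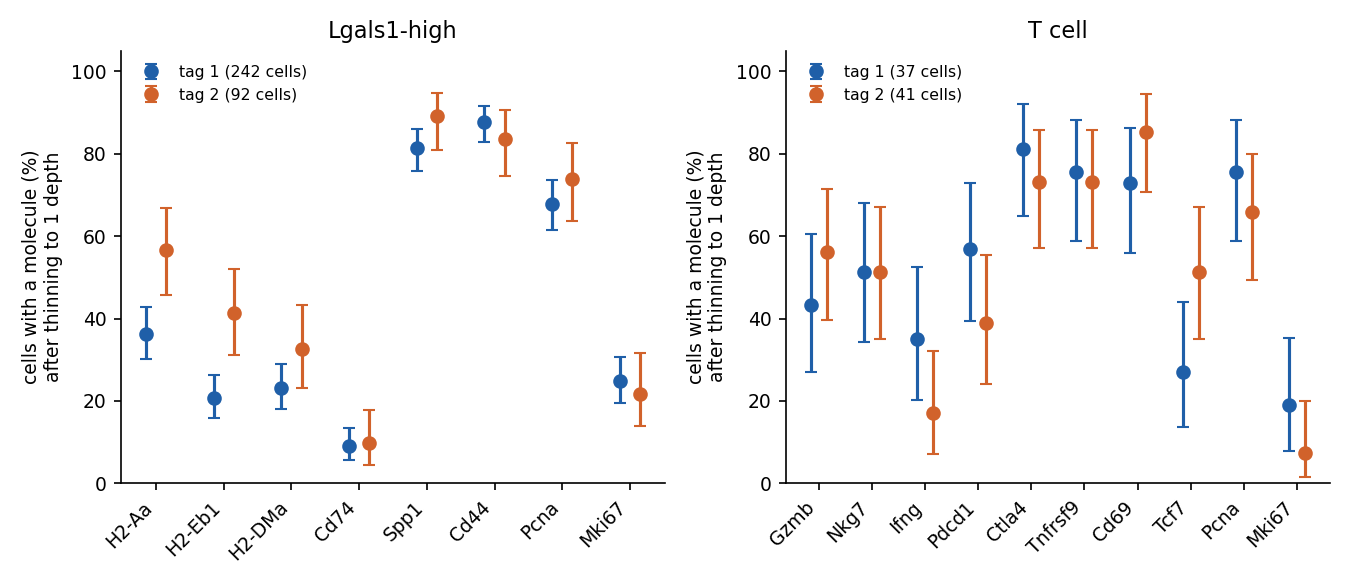
Share of cells with at least 1 molecule of a gene (percent) after each cell was thinned to 500 molecules, for Lgals1-high cells (left) and T cells (right) of tag 1 (blue) and tag 2 (orange), with exact 95% intervals covering counting error only. H2-Aa goes from 36.4 to 56.5% and H2-Eb1 from 20.7 to 41.3% of Lgals1-high cells; among T cells Tcf7 goes from 27.0 to 51.2%.

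With H2-Eb1 counted, 15 genes were higher and 19 lower in Lgals1-high cells of tag 2 among 233 measured, 14.6% of them. Among abundant genes of these cells, picked after their values were seen, Spp1, which encodes osteopontin, stood at 50464 and 72223 CPM (log2 0.52), Cd44 at 7321 and 5247 (-0.48), Cxcl1 at 17563 and 22906 (0.38) and Top2a, a proliferation gene, at 3126 and 2408 (-0.38). None of 6 proliferation genes passed 2-fold, nor did any of 7 interferon-response, 5 NF-kappaB, 6 granule, 3 antibody target or 2 complement genes. The largest ratios among the higher genes rested on few cells. Ctla4, a T cell checkpoint, had 9.19 and 211 CPM with 81 molecules in 3 cells of tag 2, and Thy1 28.6 and 545 with 55.5% of its tag 2 molecules in 1 cell. Clec10a, a lectin of macrophages and dendritic cells, had molecules in 2 cells of tag 2, and Lck, a T cell kinase, in 22. Tnfrsf4, Ctsw, Trbc1, Xcl1, Nkg7 and Trbc2 were higher as well, and of all 15 higher genes 8 held without the top cell. With cells taken from the Lgals1-high Leiden cluster in place of the gate, 2 of the 15 were still called, and Ctla4 (-1.75), Tnfrsf4 (-1.43) and Trbc2 (-1.34) turned lower. T cell markers summed to 82.7 CPM in tag 1 and 368 in tag 2 of these cells and NK cell markers to 211 and 566; their part in the result was not tested.

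The lower genes came from several lists. Mmp12 stood at 1415 CPM in tag 1 and 276 in tag 2 (log2 -2.36, and -1.66 without the top cell), Ccl6 at 719 and 151 (-2.25 and -1.54) and Ccl4 at 366 and 78.3 (-2.22 and -1.72). With cells thinned and gated again, Mmp12 and Ccl4 were at -0.38 and -0.19. Arg1, the arginase of suppressive myeloid cells, stood at 1277 and 425 (-1.59 and -0.89) and turned to 0.92 in the cluster. Itgae, Gzma (-2.42), Ccr7 (-2.19), H2-DMb2 (-1.86), Tnfsf13b (-1.45) and Pask (-1.43) were lower as well, and 7 of the 19 lower genes held without their top cell. Of the Lgals1-high cells, 14 of tag 1 and 4 of tag 2 fell in the Leiden cluster that held most of the macrophage gate, although that gate made up 38.1% of the cluster's 370 cells. By list, chemokines had 1 higher (Xcl1) and 4 lower of 13, chemokine receptors 1 and 2 of 6, cytotoxic genes 1 and 1 of 4, costimulation genes 1 and 1 of 4, checkpoint genes 1 and 0 of 5, cytokines 0 and 1 (Il1b) of 10, suppressive myeloid genes 0 and 1 of 9 and stress genes 0 and 1 (Junb) of 10. Over all 233 genes measured in these cells 14.6% were called.

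Macrophages of both tags shared their main programme. Arg1 stood at 35543 CPM in tag 1 and 34161 in tag 2, Cxcl2 at 45849 and 45125, Cd14, the lipopolysaccharide co-receptor, at 15664 and 17584, and Lyz2, lysozyme, at 42518 and 36741. By the 2-fold rule 15 genes were higher and 7 lower of 236 measured, 9.32% of them, in 97 and 51 cells. The 5 class II genes had a median log2 ratio of -0.04 and the 6 proliferation genes one of 0.06, and no member passed in 8 of the 15 lists, those for interferon response, NF-kappaB, complement, checkpoint and stress genes among them. The largest ratios upwards were in genes found in few cells. Elane stood at 2.13 and 323 CPM, with 70 molecules in 3 cells of tag 2 and a log2 ratio of 4.97 without the top cell. Il12b, a subunit of interleukin-12 made by dendritic cells and macrophages, stood at 21.3 and 688 CPM, with 149 molecules in 3 cells. Xcl1, Lck, Trbc1, Nkg7, Tnfrsf18, Cd2, Ada and Ctsw followed, and 8 of the 15 higher genes held without their top cell. Summed T cell markers in this gate were 121 and 628 CPM and NK cell markers 143 and 771. Summed tumour markers, a list that holds Lgals1, Spp1 and Fn1, were 91139 and 77061 CPM. Of the 51 macrophages of tag 2, 7 had at least 3 molecules of Epcam and 13 of Cdh1. The part of these markers in the result was not tested.

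Fewer genes were lower in macrophages of tag 2. Mmp9, a gelatinase, stood at 4192 and 1260 CPM (log2 -1.73, and -1.13 without the top cell), Ccr7 at 787 and 134 (-2.56 and -1.30) and Tnfrsf9, the costimulatory receptor 4-1BB, at 2375 and 1057 (-1.17 and -0.95). Fosl1 (-1.24), Pik3ip1 (-1.16), Fscn1 (-1.11) and Klrk1 (-1.09) fell under 2-fold without their top cell. Of the 7, Mmp9 and Ccr7 held. Mmp9 turned to 0.94 with cells thinned and gated again, and Ccr7 to 0.84 with a Leiden cluster in place of the gate. By list, costimulation genes had 2 higher and 1 lower of 6, cytokines 2 (Il12b, Csf2) and 0 of 11, cytotoxic genes 1 and 1 of 3, chemokines 1 and 0 of 13, chemokine receptors 0 and 1 of 6 and suppressive myeloid genes 1 (Chil3) and 0 of 10. Over all 236 genes measured in macrophages 9.32% were called.

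T cells differed in more of their genes than the classes above and rest on fewer cells. In 39 cells of tag 1 and 45 of tag 2, with 69169 and 61010 molecules, 35 genes were higher and 24 lower of 234 measured, 25.2% of them, and 16 and 13 of these held without the top cell. Activation and effector genes of T cells went both ways. Gzmb, a killing granule protease, stood at 16915 CPM in tag 1 and 21800 in tag 2, Ctla4 at 11089 and 12654, Tnfrsf9 at 11682 and 13801 and Icos, a costimulatory receptor, at 5436 and 5671. Pdcd1, which encodes PD-1, stood at 5450 and 3016 (log2 -0.85), and was found in 56.8 and 39.0% of thinned cells, a difference between -37.5 and 4.26 points. No checkpoint gene of 6 passed 2-fold. Of 9 cytotoxic genes, Ifng and Klrk1 were lower; Ifng, interferon gamma, stood at 2732 and 1197 CPM (log2 -1.19, and -0.38 without a tag 1 cell that held 48.1% of its molecules). Median log2 ratios were -0.52 for the checkpoint and -0.48 for the cytotoxic list, against 0.11 over all measured genes. Il2ra, the high-affinity interleukin-2 receptor chain, stood at 1981 and 4540 CPM (1.20, and 0.30 without the top cell), and Cd69, an early activation marker, at 4597 and 8867 (0.95).

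Tcf7, chosen after its value was seen, was higher in T cells of tag 2. It encodes TCF-1, a transcription factor of naive, memory and stem-like T cells, and lies at chr11:52252371-52283014. It stood at 1171 CPM in tag 1 (930 to 1456; 81 molecules) and 3196 in tag 2 (2763 to 3678; 195 molecules), a log2 ratio of 1.45 that was 1.27 without the top cell. In thinned cells it was found in 27.0 and 51.2%, a difference of 24.2 points (2.48 to 42.8), and in 0.558 and 0.680% of thinned neutrophils. Tags 3 and 4 stood at 2668 and 1403 CPM. The ratio was 0.55 with a Leiden cluster in place of the gate and 0.48 with the gates as first written, under 2-fold in both. The first gates counted Cd3d for T cells and also set T cells over the Lgals1 limit apart as mixed. Proliferation genes went the other way, with 4 of 6 lower: Mki67 (1822 and 803 CPM), Pcna (6188 and 2770), Tyms (2140 and 557) and Aurkb (766 and 344). Pcna was at 0.14 on the log2 scale with cells thinned and gated again. Mki67 was found in 18.9 and 7.32% of thinned cells and Pcna in 75.7 and 65.9%, with intervals of the difference that included 0.

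The other genes past 2-fold in T cells, named by fold, were of several kinds. Lyz2, lysozyme, stood at 636 CPM in tag 1 and 10933 in tag 2 (log2 4.10, and 2.84 without the top cell), with molecules in 11 and 13 cells. Ccl6 (3.22), Ccl9 (3.01), Ly86 (3.14) and Adgre1 (2.45), all of macrophages, held as well. Ccl3 (3.12) and Ccl4 (2.89) had 93.7 and 77.9% of their tag 2 molecules in 1 cell. Il6 had 140 molecules in 2 tag 2 cells against 3 molecules in tag 1. Il4 and Mmp12 had 0 molecules in tag 1 and 65 and 43 in tag 2, all or nearly all in 1 cell, at least 24.6 and 16.3-fold higher against a floor of 3 counts. On the lower side, Cd63, a lysosomal membrane protein, stood at 7026 and 229 CPM (-4.94), Spp1 at 4496 and 819.5 (-2.46), Lmna at 2226 and 524.5 (-2.09), Cd9 at 3875 and 1065 (-1.86) and Egr1 at 4207 and 1246 (-1.76). Klra5 (-3.96), Fosl1 (-3.79), Arg1 (-2.38) and Cxcl1 (-2.14) were lower too, and Arg1 turned to 2.67 without 1 cell. With a Leiden cluster in place of the gate, Cd63 (3.53), Spp1 (0.68), Lmna (0.45) and Egr1 (0.74) turned higher and Lyz2 (-0.59), Ccl6 (-0.86), Ccl4 (-0.66) and Ccl3 (-0.06) lower; 7 of the 35 higher and 5 of the 24 lower genes were called in both. Summed monocyte and macrophage markers in the T cell gate were 8140 CPM in tag 1 and 16702 in tag 2. The summed tumour markers, a list that holds Lgals1, Spp1 and Lmna, were 68918 and 37305. The part of both sets of markers in these genes was not tested.

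By list, the T cell gate had 6 higher and 1 lower chemokine of 10, 4 higher class II genes of 4 (H2-Aa at 5017 and 11523 CPM, 1.20 on the log2 scale and 0.50 without the top cell), 0 higher and 4 lower stress genes of 8, and 0 higher and 2 lower suppressive myeloid genes of 6. Single genes were higher among antibody targets and partners (Cd86 of 3), interferon-response genes (Cxcl10 of 6), cytokines (Il6 of 5), chemokine receptors (Ccr2 of 8), costimulation genes (Il2ra of 10) and granule genes (Itgam of 4). None passed among 5 NF-kappaB and 2 complement genes. Over all 234 genes measured in this gate 25.2% passed, so a single call in a short list is no result about that list.

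**Figure D5:**
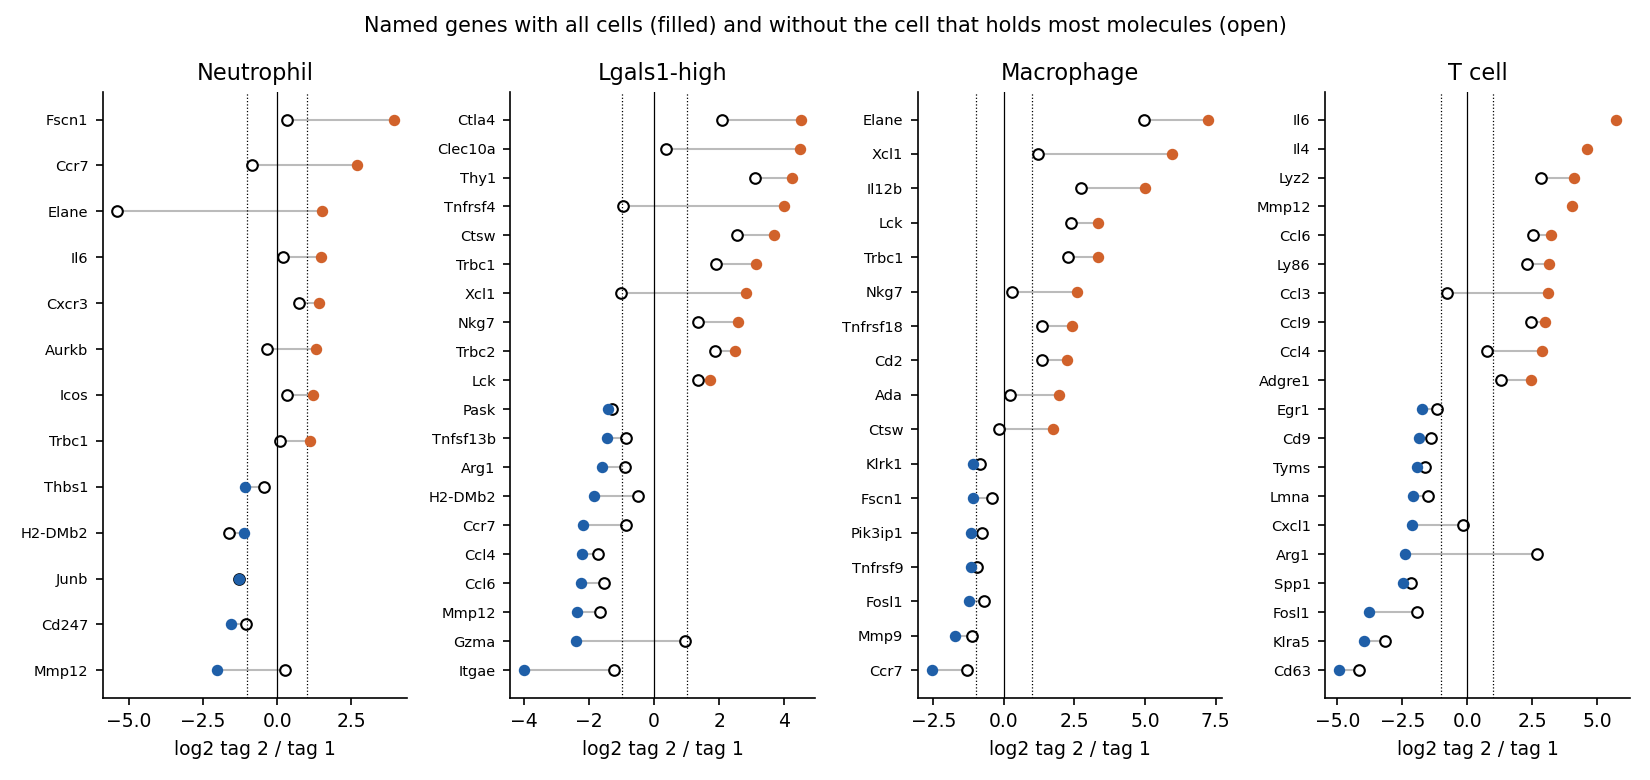
Log2 ratio of tag 2 to tag 1 (horizontal axis) for the genes with the largest 2-fold differences in each class, up to 10 in each direction, with all cells (filled; orange higher, blue lower in tag 2) and without the 1 cell that holds most molecules of that gene (open); dotted lines mark 2-fold, and an open point is missing where no more than 3 molecules were left in either tag. The 8 higher neutrophil genes all fall inside 2-fold or below it, and Elane crosses from 1.53 to -5.41.

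NK cells, with 10 and 12 cells, had 38 higher and 24 lower genes of 130 measured, 47.7% of them, and no gene is described there. With all cells of a tag summed, 43 genes were higher and 7 lower in tag 2 among 342 measured, 14.6% of them, of which 33 and 6 held without the top cell. This sum mixes make-up with level, so rare cells carry it. Vpreb3, a gene of B cell development, went from 0.188 to 12.7 CPM on 38 molecules in 4 tag 2 cells, Il12b from 2.44 to 110 in 5 cells, and Il17a, the interleukin-17 gene, from 9.40 to 63.1 in 7 cells. Of the 7 lower genes, Ccl17, a chemokine of dendritic cells that draws regulatory and helper T cells, went from 162 to 29.1 CPM with molecules in 89 and 46 cells (log2 -2.48, and -1.59 without the top cell), Thbd from 70.1 to 19.7 in 65 and 35 cells, and Cd200, an inhibitory ligand, from 136 to 46.1 in 78 and 44 cells. Cd163, a scavenger receptor, went from 50.2 to 16.0 in 15 and 15 cells, with 60.7% of its tag 1 molecules in 1 cell, a log2 ratio of -1.65 that was -0.30 without it and 1.29 without the deepest 5% of cells.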

How the data were processed

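Single-cell molecule counts were deposited by the authors as 1 table per sample tag; per the file headers they came from the BD Rhapsody Targeted Analysis Pipeline 1.12.1 with molecule identifiers corrected for errors, tag 1 in a separate run against 397 targets and tag 2 against 468. Neither aligner nor build is given in the sources used here. The submitters' processing notes also list Seurat 3.2.0. For tag 1 the symbol is the first element of the target name, targets of 1 symbol were summed, and 396 shared genes were kept. No cell was filtered and no doublet caller was run. Cells meeting gates of different types were called mixed, except that passing the Lgals1 limit did not make a marker-gate cell mixed.

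Counts were summed over each class (pandas 2.3.3, numpy 2.4.6) and scaled to 1000000 shared-gene molecules. Exact intervals used scipy 1.17.1 and differences of shares Newcombe's method. No test was possible with 1 tag per group. A gene was measured at 30 molecules over both tags and called at 2-fold; a tag at 0 was set to 3 counts for the whole class. Genes were named by fold, up to 10 in each direction per class, with list members by counts and by those with most molecules. Members and lists were chosen with earlier results of these data known, and dropping Cd3d from the T cell gate and letting Lgals1 not make a lineage cell mixed were decided after the cells had been seen. Alternatives used edgeR 4.0.16 for TMM scaling and scanpy 1.11.5 for Leiden clusters. The calculation was tested on simulated data. Gene positions are those of GENCODE M21 on GRCm38, and all 392 transcript identifiers in the table headers were found there. The results of 1 gene are not reported here.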

Additional observations from a re-analysis of the deposited data

Results flagged for a closer look

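The tag 2 table counts 72 genes that the tag 1 table does not, and they held 11.5% of its molecules, so this signal enters no comparison. Nfkbia (89552 molecules), Ccrl2 (35035), Crip1 (32090), Csf3r (30356) and Slfn4 (26414) led them. Siglece, the gene of the antibody's target, was among them with 950 molecules in tag 2.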

How the results depend on the processing

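All 49 other values of the share differences stayed within the counting interval of the value reported, with T cells 0.934 to 1.78 points higher and Lgals1-high cells 2.97 to 4.81 points lower (differences of -2.97 and -4.81). Of the counts of genes past 2-fold, 64 stayed within 1.5 times and 50 did not; of the log2 ratios of named genes, 452 moved by less than their counting error, 179 by more and 38 changed sign. The cause of these changes was not tested. No paired analysis was possible because each group is 1 tag and the tags share no replicate number.

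At 1.5-fold the counts higher and lower in tag 2 were 74 and 25 in all cells, 24 and 8 in neutrophils, 36 and 34 in Lgals1-high cells, 24 and 20 in macrophages and 55 and 48 in T cells. With a minimum of 10 molecules there were 10 lower in neutrophils, 33 higher in Lgals1-high cells, and 36 higher and 16 lower in macrophages. With a minimum of 100 there were 3 and 2 in neutrophils, 6 and 12 in Lgals1-high cells, 6 higher in macrophages and 19 higher in T cells. Without the top cell of each gene there were 2 higher in neutrophils, 10 lower in Lgals1-high cells and 3 lower in macrophages. Without the cells with the highest 5 percent of molecules there were 11 lower in all cells, 26 higher in Lgals1-high cells and 4 higher in macrophages. With cells thinned to 500 molecules and gated again there were 27 and 3 in all cells, 4 and 2 in neutrophils, 11 lower in Lgals1-high cells, 2 higher in macrophages and 7 higher in T cells. With Leiden clusters there were 2 lower in neutrophils, 5 higher in Lgals1-high cells, 60 higher in macrophages, and 16 and 15 in T cells. With genes set apart whose tag 1 level lay outside those of tags 2 to 4, there remained 4 and 1 in all cells, 2 and 1 in neutrophils, 6 and 11 in Lgals1-high cells, 1 lower in macrophages, and 12 and 3 in T cells. This left 133 of 342 genes in all cells, 131 of 260 in neutrophils and 91 of 233 in Lgals1-high cells. In macrophages it left 134 of 236 and in T cells 99 of 234. In neutrophils tag 1 lay outside all other tags for 49.6% of genes, and tag 2 did so for 48.9%. Both of the following were added after seeing the data: the gates as first written gave 3 higher in neutrophils and 21 lower in macrophages, and keeping marker-gate cells over the neutrophil percent gave 14 lower in T cells.

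Signs changed in Leiden clusters for Arg1 (0.92), Ctla4 (-1.75), Tnfrsf4 (-1.43) and Trbc2 (-1.34) in Lgals1-high cells, for Ccr7 (0.84), Elane (-1.11), Pik3ip1 (0.24) and Tnfrsf9 (0.13) in macrophages, for Icos (-0.18), Mmp12 (0.62) and Trbc1 (-0.07) in neutrophils, and for Ccl3 (-0.06), Ccl4 (-0.66), Ccl6 (-0.86), Cd63 (3.53), Egr1 (0.74), Lmna (0.45), Lyz2 (-0.59) and Spp1 (0.68) in T cells. They changed with cells thinned and gated again for Ctla4 in Lgals1-high cells (-1.65), Mmp9 in macrophages (0.94), Thbs1 in neutrophils (0.16) and Ccl3 (-4.04) and Pcna (0.14) in T cells. Without the deepest cells Cd163 over all cells was at 1.29. The gates as first written gave Elane in neutrophils -3.75 and Egr1 in T cells 0.15, and keeping cells over the neutrophil percent gave Spp1 in T cells 0.33. Without the top cell they changed for Gzma (0.94), Tnfrsf4 (-0.96) and Xcl1 (-1.01) in Lgals1-high cells, Ctsw in macrophages (-0.18), Aurkb (-0.33), Ccr7 (-0.83), Elane (-5.41) and Mmp12 (0.25) in neutrophils, and Arg1 (2.67) and Ccl3 (-0.78) in T cells.

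TMM scaling shifted the median of all genes by -0.10 over all cells, -0.08 in macrophages and T cells, 0.02 in Lgals1-high cells and -0.00 in neutrophils. Counts limit the small classes: 39 and 45 T cells and 51 macrophages of tag 2 leave single cells to decide many ratios.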
